A study of Mus musculus with 6 samples.

Results

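The 46 genes described here act in the cell division cycle and in DNA replication. They were named by symbol out of the 56884 genes in the count files, with earlier results of these data known, and all 46 were found. By role they were placed in 4 groups. These were 14 genes of S phase, 20 genes of G2 and mitosis, 8 cyclins and cyclin-dependent kinases of G1 and the entry into S phase, and a group of 4 made of E2f1, Rb1 and the kinase inhibitors Cdkn1b and Cdkn2c. The cells were Lgr5-GFP-positive cells sorted from mouse small intestinal organoids, which are cultures of intestinal epithelium that keep dividing stem cells. The libraries were made from messenger RNA.

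All 6 libraries came from 1 genotype that combines Villin-CreERT2 and Lgr5-EGFP-IRES-CreERT2 with Ythdf2fl/fl. It carries a Cre recombinase activated by 4-hydroxytamoxifen (4-OHT) under the epithelial Villin promoter, a second inducible Cre with GFP at the stem cell gene Lgr5, and floxed alleles of Ythdf2, which encodes a reader of N6-methyladenosine in RNA. EtOH, the vehicle, was the control, and the stated dose was 0.5 µM. Cells were sorted 6 days after treatment for 2 EtOH libraries and 2 libraries labelled 4-OHT, and 4 days after treatment for 1 library of each label. The labels do not say whether replicates came from separate cultures or animals, so p-values measure only the spread between these libraries.

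A dividing cell first makes D-type cyclins, which bind Cdk4 and Cdk6 and, with cyclin E and Cdk2, phosphorylate the retinoblastoma protein Rb1 and release E2F factors. E2F factors then switch on the genes for origin licensing, the MCM helicase and nucleotide supply that are used in S phase, and a later wave of genes for chromosome condensation, the spindle and cytokinesis follows in G2 and mitosis. In the intestinal crypt the Lgr5-positive stem cells cycle continuously, and their daughters stop dividing as they become enterocytes or secretory cells.

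Each library held 14345379 to 21461835 counts assigned to genes. At day 6 Ythdf2 reads numbered 1563 and 1312 under EtOH and 4463 and 3816 under 4-OHT. The day 4 numbers were 1483 (EtOH) and 2466 (4-OHT), so the gene named in the genotype was higher, not lower, in the libraries labelled 4-OHT. These whole-gene counts do not show which exons were read, and directions below refer to the labels. Lgr5 was present in each library, at 209 to 369 CPM, the counts scaled to a common library size and composition. Summed CPM of 6 immune markers was 5.09 to 10.2 and that of 5 fibroblast markers 0.371 to 1.09. At day 6 the 13 enterocyte markers summed to 1078 and 1189 CPM under EtOH and to 3829 and 3217 CPM under 4-OHT, against 826 (EtOH) and 1471 (4-OHT) at day 4. The 12 stem cell markers summed to 6530 and 6093 CPM (EtOH) and 4395 and 4023 CPM (4-OHT) at day 6, and to 5456 and 4701 CPM at day 4. Most of that day 6 gap was Olfm4, at 3308 and 2247 CPM (EtOH) and 1322 and 986 CPM (4-OHT), the 1 stem cell marker called lower by edgeR (0.235% of all genes). The other 11 summed to 3222 and 3846 CPM (EtOH) and 3074 and 3038 CPM (4-OHT), and 4 of the 12 were higher under 4-OHT. The part of these shifts in cell type markers in the values of the cell cycle genes was not tested, and in such bulk libraries fewer cells of a type and less RNA per cell cannot be told apart.

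All 46 cell cycle genes were detected in each library. Their counts in a library ran from 89 for Ccne2, a cyclin E, to 14479 for Mki67, the gene of the proliferation antigen Ki-67. Per kilobase of exon, the mean level over the 6 libraries was highest for Cdk4, a G1 kinase, at 89.6 CPM per kb, followed by Cdc20, an activator of the anaphase-promoting complex, at 79.0 CPM per kb, and Top2a, topoisomerase II alpha, at 60.6 CPM per kb. It was lowest for Ccne2 at 1.83 CPM per kb, with Cdkn2c at 4.22 CPM per kb and Ccne1, the other cyclin E, at 4.92 CPM per kb. The exon lengths include bases shared with other genes, where reads may not have been counted. The shared part was 67.3% for Gins2, 61.5% for Kif20a and 48.4% for Ccnd1. Every one of the 46 genes passed the expression filter in the day 6 comparison and in the comparison over both days.

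The difference between treatments was small and mostly in 1 direction. At day 6, 38 of the 46 genes had a lower level in the libraries labelled 4-OHT, against 51.8% of all 14066 genes tested. The median log2 fold change of 4-OHT over EtOH was -0.17 for the 46 genes and -0.01 for all genes. None of the 46 passed an adjusted p of 0.05 in either direction by edgeR's quasi-likelihood test, where 2.51% of all genes did, with 0.235% called lower and 2.27% called higher. At an unadjusted p of 0.05, 3 of the 46 passed, Ccne2 and Cdk2 lower (2.79% of all genes) and Ccnd1 higher (7.54%), against 10.3% of all genes in either direction, and DESeq2 also called 0 of the 46, where it called 3.66% of all genes. The smallest adjusted p among them was 0.434 (edgeR). The standard errors of their day 6 log2 fold changes ran from 0.15 to 0.31, which exceeds the size of the median difference or comes close to it. In simulated libraries of the day 6 design the test recovered 46.2% of genes changed 2-fold. Smaller changes, such as those of the 46 genes at day 6, were not simulated.

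Over both days, with day as a term in the model, 41 of the 46 genes were lower under 4-OHT, against 51.4% of the 14060 genes tested. Of these, 1 was called by edgeR, Ccnd1, which was higher, against 3.68% of all genes called higher, 0.718% called lower and 4.4% called in either direction. At an unadjusted p of 0.05, 11 were lower, against 5.79% of all genes, and 8 of the 11 were genes of G2 and mitosis. In the single day 4 pair, which has no replicate check, 41 of the 46 were lower in the library labelled 4-OHT, against 50.1% of genes. The median day 4 log2 fold change was -0.24 for the 46 genes and -0.0005 for all genes. With the 1.5-fold limit, Ccne2, Cdkn2c and Kif20a were lower at day 4 (6.67% of all genes) and Ccnd1 was higher (11.2% of all genes).

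**Figure D1:**
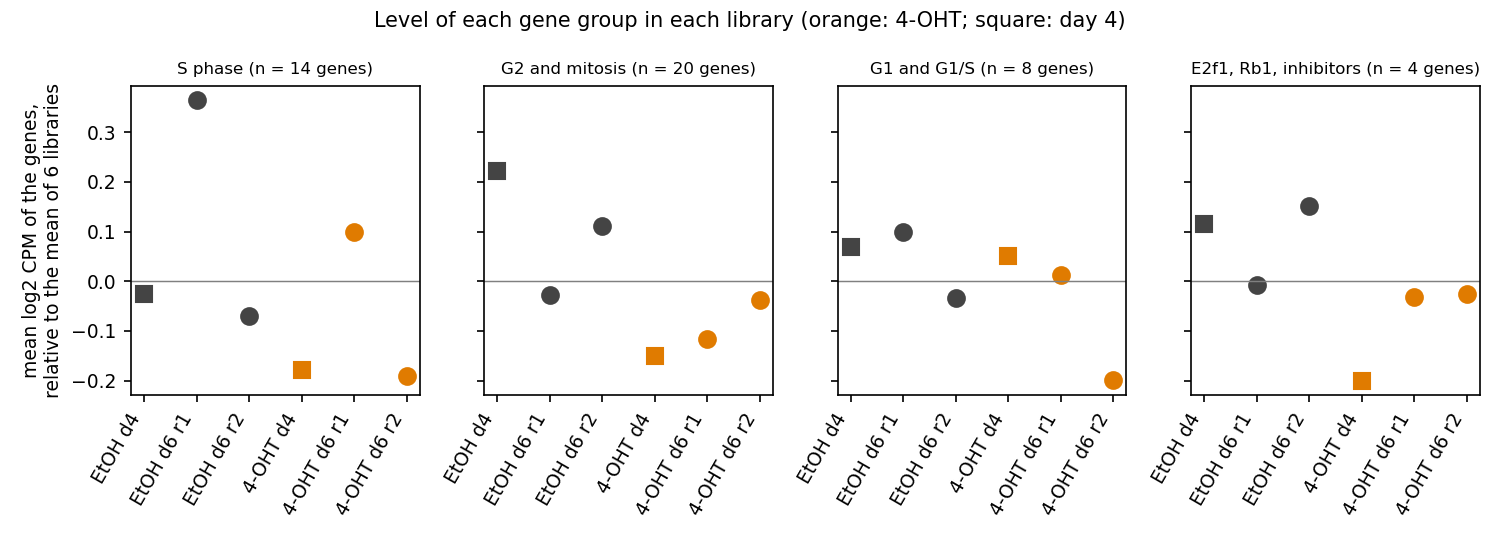
Mean log2 CPM of the genes of each group in each library, on the y axis, relative to the mean of the 6 libraries, with EtOH in grey, 4-OHT in orange, day 6 as circles and day 4 as squares. S phase genes are highest in EtOH replicate 1 of day 6 (0.36) and lowest in 4-OHT replicate 2 (-0.19), whereas G2 and mitosis genes are highest in the day 4 EtOH library (0.22) and lowest in the day 4 library labelled 4-OHT (-0.15).

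The groups of S phase and of G2 and mitosis differed in how the libraries were ordered. For the 14 S phase genes the mean log2 CPM, relative to the mean of the 6 libraries, was 0.36 and -0.07 in the day 6 EtOH replicates 1 and 2, 0.10 and -0.19 in the 4-OHT replicates 1 and 2, and -0.02 (EtOH) and -0.18 (4-OHT) at day 4. The treatments overlapped, and replicate 1 was the higher one under each treatment. For the 20 genes of G2 and mitosis the same quantity was -0.03 and 0.11 (EtOH) and -0.12 and -0.04 (4-OHT) at day 6. At day 4 it was 0.22 (EtOH) and -0.15 (4-OHT). Here each EtOH library lay above each library labelled 4-OHT, although EtOH replicate 1 and 4-OHT replicate 2 were only 0.01 apart in this mean (-0.03 and -0.04). The pooled SD between day 6 replicates was 0.26 for the S phase mean and 0.08 for the G2 and mitosis mean. The S phase mean minus the G2 and mitosis mean was 0.20 and -0.37 in the EtOH replicates, 0.02 and -0.35 in the 4-OHT replicates, and -0.44 (EtOH) and -0.22 (4-OHT) at day 4. That difference separated the replicates by number and not the treatments at day 6.

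The library that was highest also differed between the groups. EtOH replicate 1 of day 6 was the highest of the 6 libraries for 13 of 14 S phase genes, all but Mcm4, against 26.5% of all genes, and for 2 of the 20 G2 and mitosis genes. The day 4 EtOH library was highest for 16 of the 20 G2 and mitosis genes, against 15.5% of all genes, and for 0 of the S phase genes. The day 4 library labelled 4-OHT was lowest for 14 of the 20 and for 8 of the 14, against 18.3% of all genes.

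Among the S phase genes, all 14 had a day 6 log2 fold change below 0, from -0.40 for Pcna to -0.07 for Cdt1, with a median of -0.20, and none was called by edgeR. Only Mcm3 had both 4-OHT libraries below both EtOH libraries at day 6, against 18.4% of all genes. This median rests on 1 library, since without EtOH replicate 1 it was 0.05 and without EtOH replicate 2 it was -0.39. At day 4, 13 of the 14 were lower, with a median of -0.14, and Rrm2 was at 0.01.

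Pcna encodes the sliding clamp of DNA polymerases. Its level was 212 and 116 CPM in the day 6 EtOH replicates, 148 and 101 CPM in the 4-OHT replicates, and 143 (EtOH) and 136 (4-OHT) CPM at day 4. The spread within EtOH was larger than the gap between treatments, and the groups overlapped. At day 6 the log2 difference was -0.40 (SE 0.27, n = 2 and 2, adjusted p 0.738 by edgeR's quasi-likelihood test). Without EtOH replicate 1 it was 0.11, and in the model with replicate number it was -0.36 (SE 0.19). A processed copy, Pcna-ps2, held 1146 counts over the 6 libraries, so reads may be split between the copies. Tyms, thymidylate synthase, was at 89.2 and 50.5 CPM (EtOH) and 59.0 and 51.1 CPM (4-OHT) at day 6, and at 53.7 and 49.3 CPM at day 4. It was high in EtOH replicate 1 alone, and the other 5 libraries spanned 49.3 to 59.0 CPM.

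The smallest differences of the group were those of Cdt1 and Mcm7. Cdt1, which loads the helicase at origins, was at 130 and 105 CPM (EtOH) and 124 and 101 CPM (4-OHT) at day 6, and at 110 and 99.9 CPM at day 4. Mcm7, a subunit of the MCM helicase, was at 324 and 240 CPM (EtOH) and 292 and 246 CPM (4-OHT) at day 6, and at 252 and 228 CPM at day 4. Both genes were high in the replicates numbered 1 and low in those numbered 2, with the treatments overlapping. Both were slightly above 0 without EtOH replicate 1 (log2 fold change 0.10 for Cdt1 and 0.17 for Mcm7) or without 4-OHT replicate 2 (0.07 and 0.04). In the model with replicate number they were at -0.07 and -0.06. Mcm3, also of the helicase, was at 241 and 200 CPM (EtOH) and 196 and 175 CPM (4-OHT) at day 6, and at 195 and 188 CPM at day 4. Its day 6 groups did not overlap, but the day 4 EtOH library lay below the higher 4-OHT library of day 6. The other helicase subunits Mcm2, Mcm4, Mcm5 and Mcm6 had day 6 log2 fold changes of -0.25, -0.09, -0.21 and -0.14. The loader Cdc6 (-0.28), the helicase partners Cdc45 (-0.25) and Gins2 (-0.20) and the ribonucleotide reductase subunits Rrm1 (-0.19) and Rrm2 (-0.19) completed the group. Gins2 shares 67.3% of its exon bases with Gse1, and its counts hold only reads that the counting could assign to 1 gene.

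**Figure D2:**
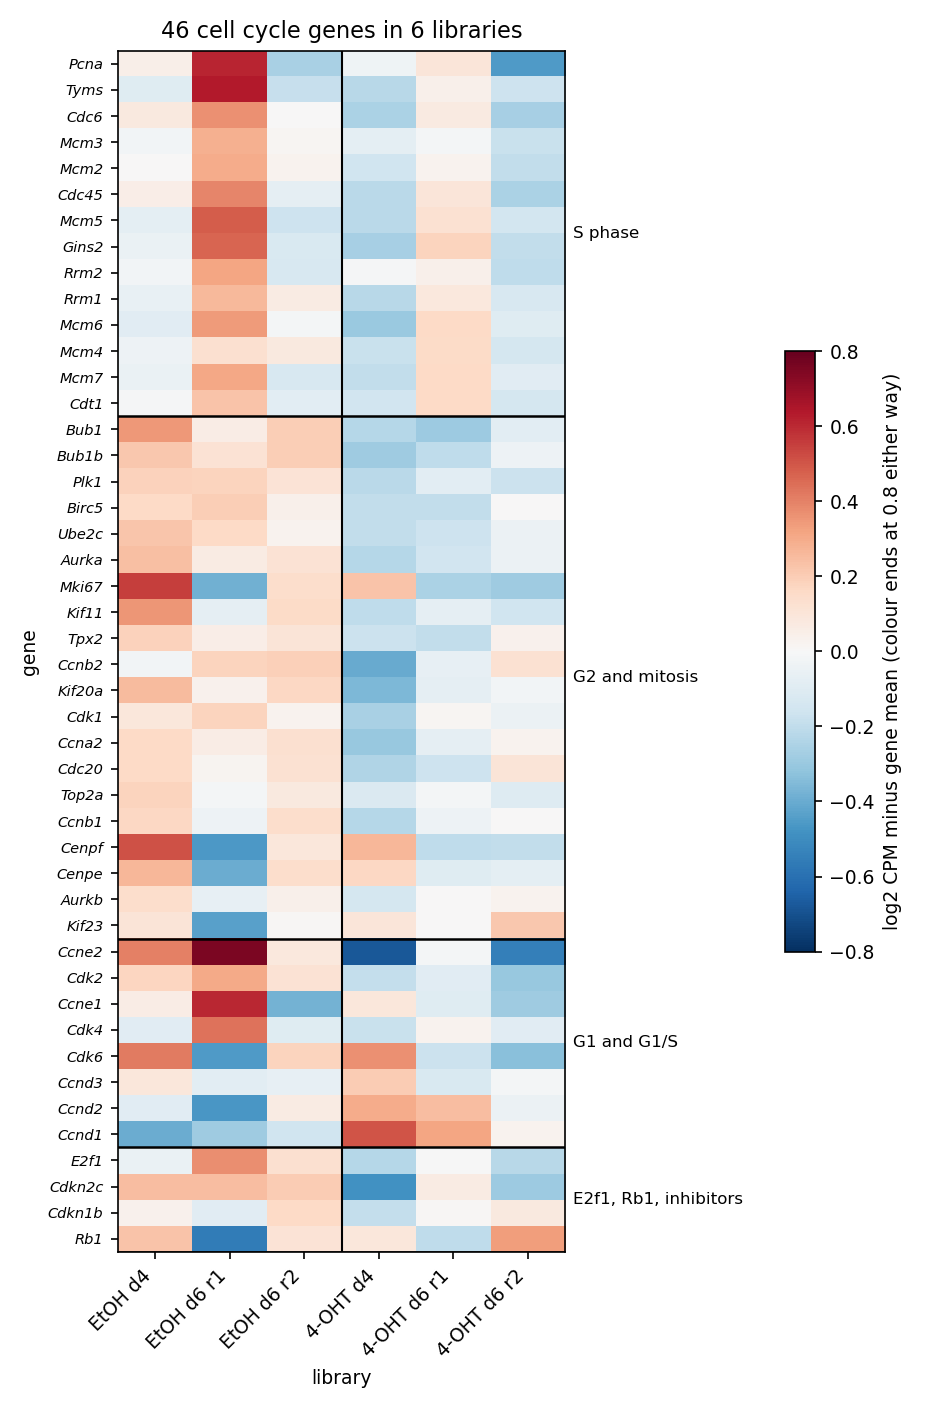
Level of each of the 46 genes (rows, grouped by role) in each of the 6 libraries (columns), as log2 CPM relative to the gene's mean over the libraries, in colour. The S phase rows show the highest colour in EtOH replicate 1 of day 6 for 13 of 14 genes, and the G2 and mitosis rows in the day 4 EtOH library for 16 of 20 genes.

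Of the 20 genes of G2 and mitosis, 17 were lower at day 6, with a median of -0.15, and values ran from -0.31 for Bub1 to 0.30 for Kif23. None was called by edgeR at day 6 or over both days, and 0 had an unadjusted p under 0.05 at day 6. In 13 of the 20, both 4-OHT libraries lay below both EtOH libraries at day 6, against 18.4% of all genes. At day 4 all 20 were lower in the library labelled 4-OHT, with a median of -0.38. In 12 of the 20, each of the 3 libraries labelled 4-OHT lay below each of the 3 EtOH libraries, against 9.14% of all genes, while 0 of the 14 S phase genes did. The 12 were the kinases Aurka, Bub1, Bub1b, Cdk1 and Plk1, the cyclin Ccna2, the chromosomal passenger Birc5, the motors Kif11 and Kif20a, and Top2a, Tpx2 and Ube2c. For the G2 and mitosis genes the count was 10 to 12 under the other scalings and 12 to 15 when 1 library was left out. For the S phase genes it was 1 under the other scalings and 0 to 9 when 1 library was left out. Leaving out a library removes a condition, so neither count could fall below that of all 6 libraries. The lower ends of these 2 ranges were thus fixed in advance and do not measure stability. The 9 of 14 came without 4-OHT replicate 1 of day 6, where the G2 and mitosis count was 12 of 20 and the share of all genes 14.1%, so the gap between the groups in this count rests on that library. Kif20a shares 61.5% of its exon bases with Brd8 and Cdc23, and Aurka shares 38.6% with Cstf1 and Fam210b.

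Bub1 and Bub1b, kinases of the spindle checkpoint, had the lowest day 6 values of the group. Bub1 was at 76.1 and 83.9 CPM (EtOH) and 59.9 and 69.1 CPM (4-OHT) at day 6, and at 93.0 (EtOH) and 62.5 (4-OHT) CPM at day 4. All 3 EtOH libraries lay above all 3 libraries labelled 4-OHT, and the day 4 EtOH library was highest. The log2 difference was -0.31 at day 6 (SE 0.17, adjusted p 0.608) and -0.40 over both days (SE 0.12, adjusted p 0.111), both by edgeR's quasi-likelihood test. Bub1b was at 138 and 145 CPM (EtOH) and 111 and 124 CPM (4-OHT) at day 6, and at 147 and 104 CPM at day 4. Plk1, the polo-like kinase of mitotic entry, was at 121 and 116 CPM (EtOH) and 101 and 95.1 CPM (4-OHT) at day 6, and at 121 and 92.2 CPM at day 4. Its groups did not overlap, and the 3 EtOH values lay within 6 CPM of each other.

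Other genes of the group did not follow that order. Mki67 was at 388 and 560 CPM (EtOH) and 426 and 417 CPM (4-OHT) at day 6, and at 744 (EtOH) and 596 (4-OHT) CPM at day 4. Both day 4 libraries lay above the 4 day 6 libraries, and at day 6 the treatments overlapped. At day 6 Mki67 differed by -0.17 (log2, SE 0.20), and without EtOH replicate 2 it was 0.11. Ccnb1, cyclin B1, was at 135 and 154 CPM (EtOH) and 136 and 140 CPM (4-OHT) at day 6, and at 156 and 119 CPM at day 4, so that only the day 4 pair stood clearly apart. Aurkb, the kinase of the chromosomal passenger complex, was at 107 and 115 CPM (EtOH) and 112 and 114 CPM (4-OHT) at day 6, and at 123 and 101 CPM at day 4. Kif23, a motor of the central spindle, was at 113 and 154 CPM (EtOH) and 153 and 177 CPM (4-OHT) at day 6, and at 164 and 163 CPM at day 4. EtOH replicate 1 was low and the other 5 libraries spanned 153 to 177 CPM, with a day 6 log2 fold change of 0.30 (SE 0.19). Birc5 (-0.22), Ube2c (-0.21), Aurka (-0.20) and Kif11 (-0.17) came after Plk1 in the order of day 6 values. Ccna2, Ccnb2, Cdc20, Cdk1, Cenpe, Cenpf, Kif20a, Top2a and Tpx2 lay between -0.16 and 0.01.

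Promoter sequences are shown for 3 genes of G2 and mitosis, all among the 12 listed above, and for 2 of S phase. RefSeq promoter windows of build GRCm38.p6, from 250 bases before to 50 bases after each start, were held for 36 of the 46 genes, in 39 windows. Those not held were Ccnd1, Ccnd2, Ccna2, Ccne2, Mcm4, Gins2, Aurkb, Tpx2, Kif20a and Rb1. Capitals mark matches on either strand to TTTGAA or TTCGAA, the cell cycle homology region through which the DREAM and B-Myb complexes act on late cell cycle genes, to CCAAT, the motif of the factor NF-Y, and to the E2F motifs TTTGGCGC, TTTCGCGC, TTTCCCGC and TTTGCCGC. Sequences are written 5′ to 3′ on the strand of the gene.

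Bub1 promoter (chr2:127831810-127832109, minus strand): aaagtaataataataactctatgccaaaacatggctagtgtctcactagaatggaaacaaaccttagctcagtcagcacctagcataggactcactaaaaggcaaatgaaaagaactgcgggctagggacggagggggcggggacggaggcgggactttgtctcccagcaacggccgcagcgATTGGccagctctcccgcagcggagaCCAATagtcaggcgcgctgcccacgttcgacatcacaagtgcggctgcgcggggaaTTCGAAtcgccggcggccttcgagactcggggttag

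Plk1 promoter (chr7:122159185-122159484, plus strand): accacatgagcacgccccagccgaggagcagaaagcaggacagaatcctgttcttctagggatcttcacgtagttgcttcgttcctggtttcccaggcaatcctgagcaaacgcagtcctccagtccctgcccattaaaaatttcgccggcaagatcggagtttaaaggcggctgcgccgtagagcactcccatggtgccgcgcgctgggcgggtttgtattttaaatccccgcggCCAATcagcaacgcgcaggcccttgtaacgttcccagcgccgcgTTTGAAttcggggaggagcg

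Cdk1 promoter (chr10:69352863-69353162, minus strand): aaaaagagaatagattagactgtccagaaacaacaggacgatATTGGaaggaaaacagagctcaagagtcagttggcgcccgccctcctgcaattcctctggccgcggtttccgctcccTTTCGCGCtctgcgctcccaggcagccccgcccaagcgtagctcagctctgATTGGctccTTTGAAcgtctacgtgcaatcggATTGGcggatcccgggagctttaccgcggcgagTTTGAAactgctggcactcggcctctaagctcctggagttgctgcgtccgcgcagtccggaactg

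Mcm3 promoter (chr1:20820263-20820562, minus strand): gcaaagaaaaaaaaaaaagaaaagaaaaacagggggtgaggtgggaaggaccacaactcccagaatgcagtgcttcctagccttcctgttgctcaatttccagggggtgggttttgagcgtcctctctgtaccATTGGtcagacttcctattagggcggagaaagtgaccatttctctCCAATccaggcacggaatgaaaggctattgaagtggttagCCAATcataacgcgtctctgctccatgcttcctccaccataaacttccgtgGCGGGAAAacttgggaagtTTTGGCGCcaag

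Mcm6 promoter (chr1:128359656-128359955, minus strand): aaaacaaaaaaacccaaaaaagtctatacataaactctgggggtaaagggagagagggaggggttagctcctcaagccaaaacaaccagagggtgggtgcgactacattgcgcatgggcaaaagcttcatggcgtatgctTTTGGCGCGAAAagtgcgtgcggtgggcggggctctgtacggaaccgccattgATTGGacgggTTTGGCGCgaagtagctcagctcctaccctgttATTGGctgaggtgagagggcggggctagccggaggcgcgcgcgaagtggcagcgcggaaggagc

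In these windows Bub1, Plk1 and Cdk1 each held a cell cycle homology match together with at least 1 CCAAT match, and Cdk1 also held an E2F match. Mcm3 and Mcm6 held CCAAT and E2F matches and no cell cycle homology match. In Mcm6 a match to TTTGGCGC overlaps a reverse-strand match to TTTCGCGC, and they are printed as 1 run of capitals. Over the groups, a cell cycle homology match was in 13 of 16 windows of G2 and mitosis genes (81.2%) and in 3 of 13 windows of S phase genes (23.1%), against 19.2% of all 32851 windows in the table. An E2F match was in 1 of 16 (6.25%) and in 6 of 13 (46.2%), against 2.26% of all windows. CCAAT was in 15 of 16 (93.8%) and in 10 of 13 (76.9%), against 37.4%. Of the 12 mitosis genes with all 3 4-OHT libraries lowest, Aurka, Bub1, Bub1b, Cdk1, Kif11, Plk1, Top2a and Ube2c held a homology match. Birc5, also of the 12, held none. Outside the 12, Ccnb2, Cdc20, Cenpf, Kif23 and Mki67 held one, and Ccnb1 and Cenpe did not. A match describes the letters only, and binding was not measured. The relation of the matches to the order of the libraries was not tested.

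**Figure D3:**
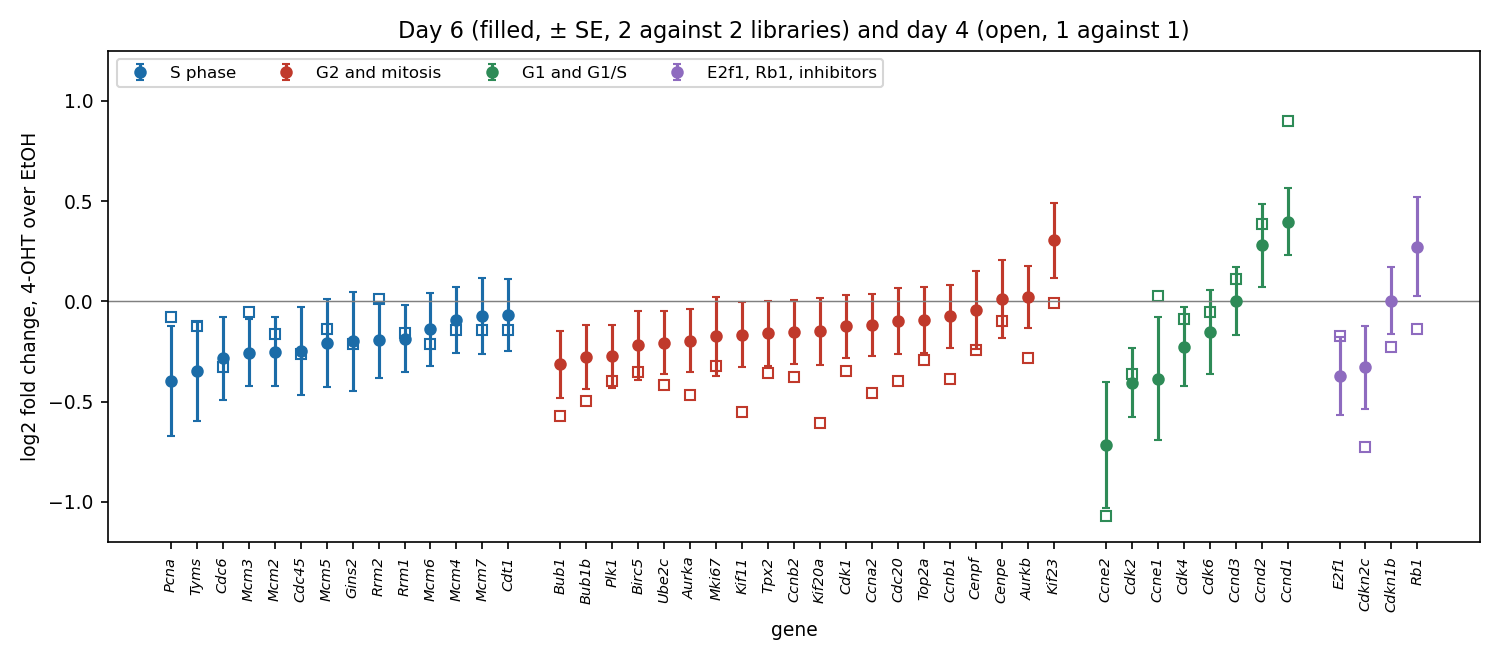
Log2 fold change of 4-OHT over EtOH (y axis) for each of the 46 genes (x axis, coloured by role), with filled circles and SE bars for day 6 (2 against 2 libraries) and open squares for day 4 (1 against 1). The bar of 1 SE reaches 0 for 21 of the 46 genes at day 6, the day 4 squares of the G2 and mitosis genes lie below 0, and Ccnd1 (0.40 at day 6, 0.90 at day 4) and Ccne2 (-0.72 and -1.07) mark the upper and lower ends.

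The 8 cyclins and kinases of G1 and the entry into S phase differed among themselves more than the other groups, with a median day 6 log2 fold change of -0.19 and a range from -0.72 to 0.40. The median was 0.02 without EtOH replicate 1. The D-type cyclins Ccnd1, Ccnd2 and Ccnd3 had values of 0.40, 0.28 and 0.003, and the E-type cyclins Ccne1 and Ccne2 had values of -0.39 and -0.72.

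Ccnd1 encodes cyclin D1. It (ENSMUSG00000070348, GRCm39 chromosome 7, 144483668 to 144493662, minus strand) was at 122 and 133 CPM in the day 6 EtOH libraries and 186 and 152 CPM in the day 6 libraries labelled 4-OHT, and at 113 (EtOH) and 211 (4-OHT) CPM at day 4. All 3 libraries labelled 4-OHT lay above all 3 EtOH libraries, an order found in 11.3% of all genes, and at day 6 alone it was the only one of the 46 with this separation (20.5% of all genes). At day 6 the log2 difference was 0.40 (SE 0.17, adjusted p 0.434 by edgeR's quasi-likelihood test), and over both days it was 0.57 (SE 0.14, adjusted p 0.0485). The call over both days was lost with scaling by library totals (adjusted p 0.0644, edgeR) and with a filter at 1 CPM (0.0510). It was also lost without EtOH replicate 1 (0.0808) or 4-OHT replicate 1 (0.193) of day 6 and without the day 4 library labelled 4-OHT (0.440) or EtOH (0.434), and it was kept by DESeq2 (0.00695). The gene shares 48.4% of its exon bases with LTO1 on the opposite strand, which was at 11.7 to 18.1 CPM, and the strand setting of the counting is not given in the sources used here.

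Ccnd2, cyclin D2, was at 357 and 516 CPM (EtOH) and 585 and 478 CPM (4-OHT) at day 6, and at 464 and 607 CPM at day 4. The day 6 groups overlapped, and the log2 difference was 0.28 (SE 0.21). Ccnd3, cyclin D3, was at 48.8 and 49.4 CPM (EtOH) and 47.5 and 51.1 CPM (4-OHT) at day 6, and at 55.1 and 59.7 CPM at day 4, and the day 6 log2 difference was 0.003 (SE 0.17). It showed no gap between the treatments at day 6. Cdk6 was at 123 and 190 CPM (EtOH) and 149 and 133 CPM (4-OHT) at day 6, and at 224 and 216 CPM at day 4. Both day 4 libraries were above all 4 day 6 libraries. Its day 6 log2 fold change of -0.15 was 0.19 without EtOH replicate 2. Cdk4 was at 411 and 285 CPM (EtOH) and 311 and 286 CPM (4-OHT) at day 6, and at 286 and 269 CPM at day 4, and was high in EtOH replicate 1 alone.

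Ccne2 and Cdk2, which form a cyclin E kinase, had the lowest day 6 values of the group, and neither passed an adjusted p of 0.05 by edgeR. Ccne2 (ENSMUSG00000028212, GRCm39 chromosome 4, 11190303 to 11204947, plus strand) was at 16.4 and 10.3 CPM (EtOH) and 9.60 and 6.65 CPM (4-OHT) at day 6, and at 12.9 and 6.05 CPM at day 4. The groups did not overlap, but EtOH replicate 2 was close to 4-OHT replicate 1. At day 6 Ccne2 differed by -0.72 (log2, SE 0.31, adjusted p 0.459 by edgeR). Over both days the value was -0.83 (SE 0.24), where edgeR gave an adjusted p of 0.104 and DESeq2 one of 0.0354, and edgeR gave 0.0296 without EtOH replicate 2 of day 6. Cdk2 (ENSMUSG00000025358, GRCm39 chromosome 10, 128533796 to 128540963, minus strand) was at 80.8 and 70.9 CPM (EtOH) and 61.7 and 53.1 CPM (4-OHT) at day 6, and at 73.8 and 57.3 CPM at day 4. All 3 EtOH libraries lay above all 3 others, and the log2 difference was -0.41 at day 6 (SE 0.17) and -0.39 over both days (SE 0.12), where the adjusted p was 0.112 by edgeR's quasi-likelihood test. Ccne1 was at 26.5 and 13.4 CPM (EtOH) and 16.3 and 14.3 CPM (4-OHT) at day 6, and at 18.1 and 18.5 CPM at day 4, with overlapping groups.

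In the group of E2f1, Rb1 and the inhibitors, 2 of 4 genes were lower at day 6, with a median log2 fold change of -0.16, and all 4 were lower at day 4, with a median of -0.20. E2f1, the factor that drives S phase genes, was at 43.3 and 36.6 CPM (EtOH) and 33.3 and 28.6 CPM (4-OHT) at day 6, and at 32.2 and 28.6 CPM at day 4. Its day 6 groups did not overlap, while the day 4 EtOH library lay within the 4-OHT range, and the day 6 log2 fold change was -0.37 (SE 0.19). Cdkn2c, the inhibitor p18 of Cdk4 and Cdk6, was at 31.3 and 30.4 CPM (EtOH) and 27.6 and 21.6 CPM (4-OHT) at day 6, and at 31.3 and 18.8 CPM at day 4. All 3 EtOH libraries lay above the 3 libraries labelled 4-OHT, and the log2 difference was -0.33 at day 6 (SE 0.21) and -0.46 over both days (SE 0.16), where the adjusted p was 0.170 by edgeR.

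Cdkn1b, the inhibitor p27, was at 74.2 and 88.3 CPM (EtOH) and 79.7 and 83.4 CPM (4-OHT) at day 6, and at 81.1 and 69.3 CPM at day 4. The 4-OHT values lay between the EtOH values at day 6, the log2 difference was 0.002 (SE 0.17), and its sign turned with the scaling. Rb1 was at 48.4 and 76.9 CPM (EtOH) and 61.9 and 89.7 CPM (4-OHT) at day 6, and at 83.5 and 75.8 CPM at day 4. Under each treatment replicate 2 was the higher one, the groups overlapped, and the day 6 log2 fold change of 0.27 (SE 0.25) was -0.02 without EtOH replicate 1 or without 4-OHT replicate 2.

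**Figure D4:**
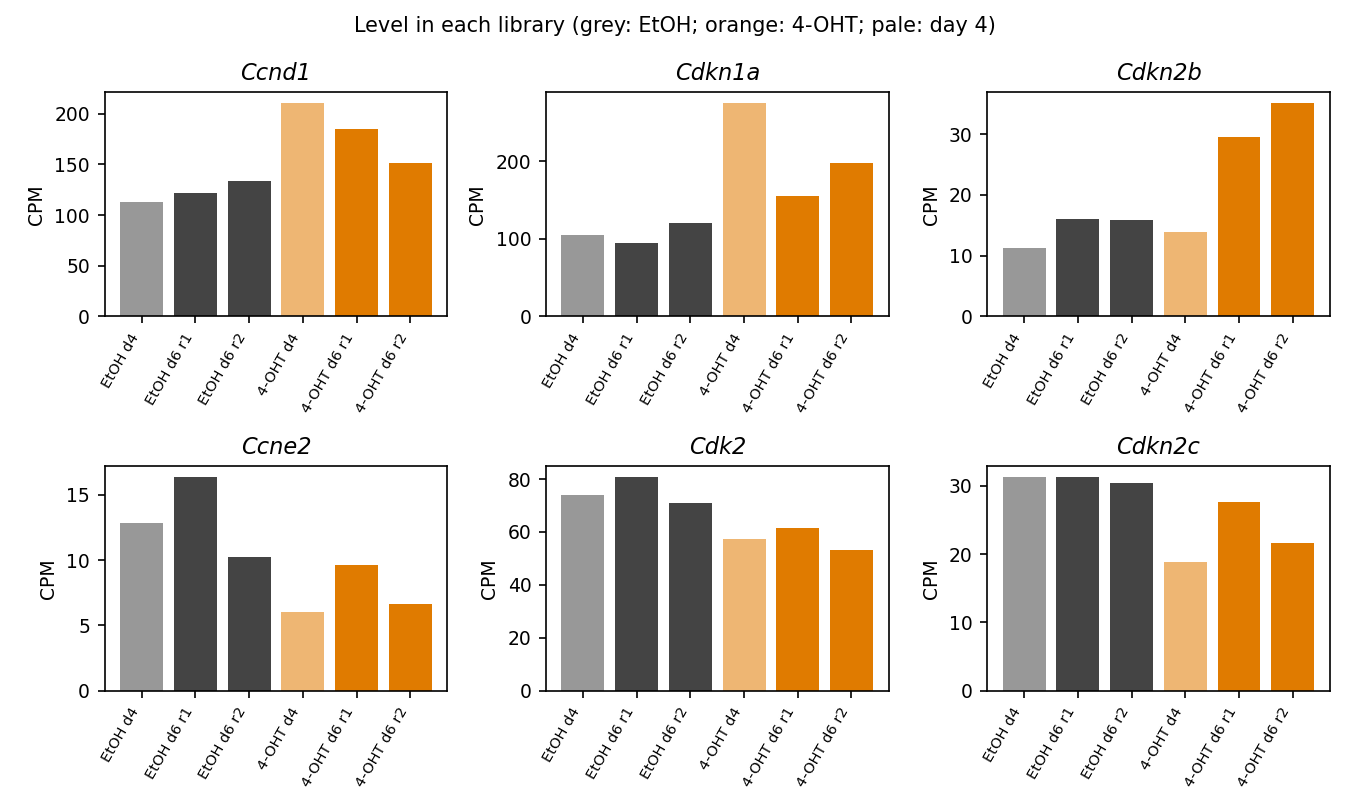
CPM (y axes, from 0) in each library for 3 genes that were higher and 3 that were lower under 4-OHT, with EtOH in grey, 4-OHT in orange and day 4 in pale shades. Cdkn2b is near 30 CPM or above only in the day 6 libraries labelled 4-OHT (29.6 and 35.2), and for Ccnd1, Cdkn1a, Ccne2, Cdk2 and Cdkn2c each 4-OHT bar lies on 1 side of each EtOH bar.

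Further genes of the same pathways, taken from lists by role, were set beside the 46. Of 50 more S phase genes, 49 passed the filter, 46 were lower at day 6 (51.8% of all genes) with a median log2 fold change of -0.19, and 0 were called. Fen1, a flap endonuclease that shares 65.9% of its exon bases with Tmem258 and Gm10143, held 1 to 11 counts and was not tested. Of 50 more G2 and mitosis genes, 46 were lower at day 6 with a median of -0.19. At day 4 all 50 were lower, against 50.1% of all genes, with a median of -0.45. In 26 of these 50 all 3 libraries labelled 4-OHT lay below all 3 EtOH libraries, against 9 of the 49 further S phase genes and 9.14% of all genes. These 2 counts were not repeated without 4-OHT replicate 1 of day 6, the library on which the gap among the 46 genes rested. Both day 6 libraries numbered 1 lay above both numbered 2 in 29 of the 49 and in 6 of the 50.

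Of these further S phase and mitosis genes, 0 were called at day 6 and 1 was called over both days, near the share of all genes called lower (0.718%) and below that called in either direction (4.4%). Ndc80, of the kinetochore complex that grips microtubules, was at 37.5 and 32.9 CPM (EtOH) and 26.0 and 21.5 CPM (4-OHT) at day 6, and at 31.9 and 20.4 CPM at day 4. The groups did not overlap. Over both days Ndc80 fell by 0.59 on the log2 scale (SE 0.14), with an adjusted p of 0.0454 by edgeR's quasi-likelihood test and 0.00835 by DESeq2. The call was lost with library totals (0.0540, edgeR) or no filter (0.0620), and without EtOH replicate 1 (0.0790), 4-OHT replicate 1 (0.0831) or 4-OHT replicate 2 (0.193) of day 6, or the day 4 library labelled 4-OHT (0.271) or EtOH (0.290).

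Of 20 further inhibitors, E2F factors and pocket proteins, 19 passed the filter and 13 were lower at day 6 (51.8% of all genes), with a median of -0.15. By edgeR 1 of the 19 was called higher at day 6, Cdkn2b, against 2.27% of all genes. Over both days 2 were called higher, Cdkn2b and Cdkn1a, against 3.68% of all genes. Cdkn2a, the gene of the inhibitors p16 and p19, held 0 to 4 counts and was not tested. Cdkn2b, its neighbour encoding the inhibitor p15, was at 16.0 and 15.9 CPM (EtOH) and 29.6 and 35.2 CPM (4-OHT) at day 6, and at 11.3 and 13.9 CPM at day 4. Both day 6 libraries labelled 4-OHT stood above the other 4 libraries. Cdkn2b rose by 1.02 on the log2 scale at day 6 (SE 0.21, adjusted p 0.0323 by edgeR's quasi-likelihood test) and by 0.80 over both days (SE 0.18, adjusted p 0.0380). The day 6 call was lost without EtOH replicate 1 (0.110), EtOH replicate 2 (0.0748) or 4-OHT replicate 2 (0.236), all by edgeR, and the call over both days was lost without EtOH replicate 1 (0.0993), EtOH replicate 2 (0.0834), 4-OHT replicate 1 (0.109) or 4-OHT replicate 2 (0.162) of day 6.

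Cdkn1a, the inhibitor p21, was at 95.0 and 120 CPM (EtOH) and 155 and 198 CPM (4-OHT) at day 6, and at 105 and 275 CPM at day 4. All 3 libraries labelled 4-OHT lay above all 3 EtOH libraries, and the day 4 one was highest. At day 6 the log2 difference was 0.71 (SE 0.19, adjusted p 0.0999 by edgeR and 0.0288 by DESeq2). Over both days Cdkn1a rose by 0.94 (SE 0.17), with an adjusted p of 0.0121 by edgeR, and this call was lost without 4-OHT replicate 2 of day 6 (0.0646) or without the day 4 library labelled 4-OHT (0.0922) or EtOH (0.0956).

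The spread between replicates of the S phase genes was examined after their values were seen. In 14 of 14 genes EtOH replicate 1 was above EtOH replicate 2 at day 6 (50.8% of all genes), and in 14 of 14 4-OHT replicate 1 was above 4-OHT replicate 2 (50.4% of all genes). In 13 of 14, all but Mcm3, both libraries numbered 1 lay above both numbered 2, against 16.8% of all genes, 29 of the 49 further S phase genes and 0 of the 20 G2 and mitosis genes. The labels do not say what a replicate number marks. In a model of the 4 day 6 libraries with treatment and replicate number, the median log2 difference of replicate 2 from replicate 1 was -0.35 for S phase genes and 0.09 for G2 and mitosis genes. Pcna was called lower in replicate 2 (log2 difference -0.71, SE 0.19, adjusted p 0.0148, edgeR), where 0.682% of all genes were called lower and 1.61% in either direction, and Rb1 was at 0.60 (SE 0.19, adjusted p 0.0902). The median difference of the S phase genes between replicate numbers was thus larger than that between treatments (-0.20).

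**Figure D5:**
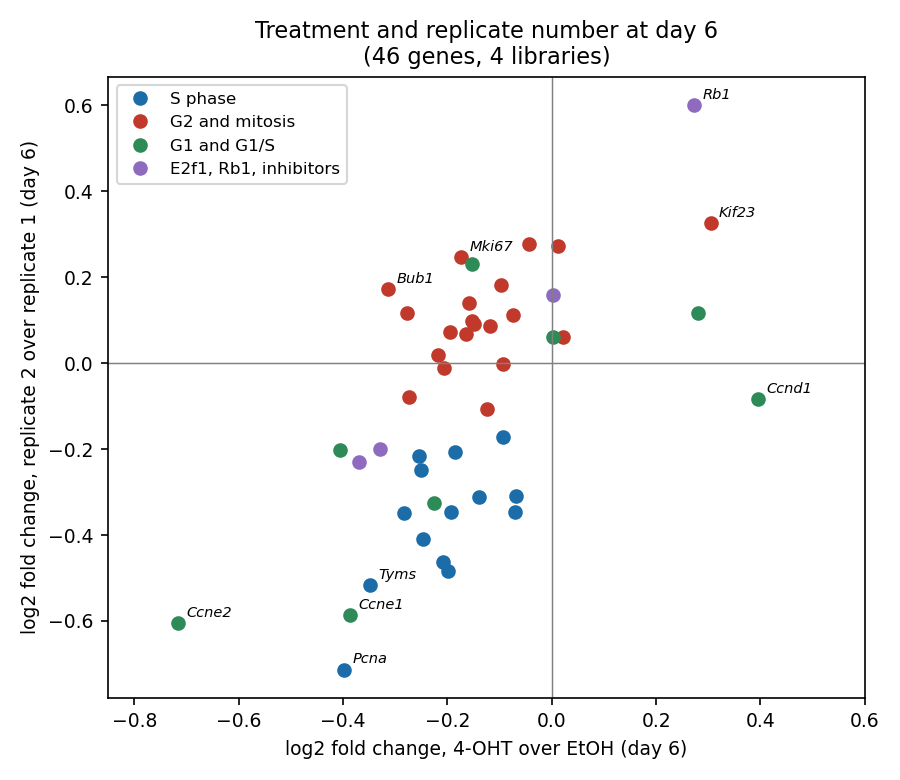
Log2 fold change of 4-OHT over EtOH (x axis) against that of replicate 2 over replicate 1 (y axis) at day 6, 1 point per gene, coloured by role. The 14 S phase points lie left of and below 0 on both axes, while 16 of the 20 G2 and mitosis points lie above 0 on the y axis.

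Between the days few of the genes were called. In the 6-library model the median log2 difference of day 6 from day 4 was 0.16 for S phase genes, with 0 of 14 lower. It was -0.004 for G2 and mitosis genes, with 10 of 20 lower, and 0.02 for all genes. In that model 0 of the 46 were called for day 6 against day 4 by edgeR, where 0.562% of all genes were. At an unadjusted p under 0.05 there were 4 of the 46, against 12.6% of all genes. DESeq2 called 2, against 2.35% of all genes, Mki67 (-0.58, adjusted p 0.0223) and Cenpf, a kinetochore protein (-0.57, adjusted p 0.0454). Cenpf was at 81.6 and 119 CPM (EtOH) and 97.5 and 98.1 CPM (4-OHT) at day 6, and at 160 (EtOH) and 135 (4-OHT) CPM at day 4. Cenpf, Mki67, Cenpe, Ccnd3 and Cdk6 had all 4 day 6 libraries below both day 4 libraries, against 10.1% of all genes. The library names in the labels run consecutively within each day and not across the days, and what they mark is not said. The day 4 libraries had 24195 and 26521 genes detected, against 19522 to 20622 at day 6. Day and this grouping of libraries cannot be told apart. The treatment difference did not pass a test for change between days for any of the 46 genes or for any other gene by edgeR (0 called, 1.62% of all genes at an unadjusted p under 0.05 and none of the 46). DESeq2 called 6 genes, none among the 46. The lower day 4 median of the G2 and mitosis genes (-0.38 against -0.15 at day 6) is therefore given as values side by side.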

How the data were processed

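The authors deposited whole-number read counts per gene, not normalized, in 1 file per library for 56884 Ensembl genes. Per the submitters' processing notes, STAR and the build mm39 were used. Version, annotation release and strand setting are not given in the sources used here. Summary lines for unassigned reads (19.3% to 26.7% of entries) stayed out of library sizes and tests. Symbols, positions and exon overlaps came from GENCODE on GRCm39, which matched 56323 identifiers.

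Counts were tested in R 4.3.3 with edgeR 4.0.16 (glmQLFit, glmQLFTest), TMM scaling, filterByExpr with a minimum count of 10, and Benjamini-Hochberg adjustment over all genes tested, with calls at an adjusted p under 0.05. The day 6 comparison used the 4 day 6 libraries, and the comparison over both days all 6 with day as a term. Day 4 values, 1 library against 1, used a prior count of 2 and no test. CPM are TMM-scaled. Each SE was obtained from the F statistic and its log2 fold change. Replicates differed beyond sampling noise (chi-square per degree of freedom 23.6 and 16.5) and were kept. Depth limits are given by the SE of each gene, and counts without molecular identifiers give counting error only.

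The members and lists were chosen with earlier results of these data known. Values in every library were given for called genes, for the 2 largest and 2 smallest day 6 log2 fold changes of each group, and for Mki67, Pcna, Ccnb1, Ccnd1, Ccnd2, Cdk6, Cdkn1b, Cdkn2c and Cdkn1a. Plk1, Mcm3, Cdk4, Ccnd3, Ccne1 and Cenpf were added after their values were seen. On simulated counts with 200 genes changed, the day 6 test (14066 genes) recovered 46.2% of 2-fold and 85.1% of 4-fold changes with 10.4% false calls, and the test over both days (14060 genes) 70.8% and 92.6% with 8.47%. Alternatives were other scalings, other filters, DESeq2 1.42.0, a replicate block, all 6 libraries in 4 groups, another prior count, and leaving out each library. Exon-level reads were not analysed here.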

Additional observations from a re-analysis of the deposited data

How the results depend on the processing

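The SE of 0.15 to 0.31 per gene sets the precision at day 6, and leaving out a library there left 1 in an arm, assumed to vary like the others. Of 182 values that answer a comparison, 160 stayed within a set limit, as did 484 of 550 others, mostly single-gene values that kept sign and call. Counts could change up to 1.5-fold, and group medians by less than the pooled SD between day 6 replicates, 0.26 for S phase genes. Sign was not checked for medians, so the S phase median without EtOH replicate 1 was within the limit although its sign turned. The number of genes called at day 6 was 353, 839 with a replicate block, 505 with DESeq2 and 113 to 409 without 1 library, fewest without EtOH replicate 1. Same-numbered libraries deviated together (correlation 0.27 across genes), which the labels do not explain, and the replicate block called 0 of the 46 genes. Over both days 618 genes were called, 361 to 701 without 1 library (384 without 4-OHT replicate 1 and 394 without 4-OHT replicate 2 of day 6, 361 without either day 4 library), and members called were 0 with library totals, 0 with the 1 CPM filter, 2 with DESeq2 and 0 to 2 without 1 library. Day 6 against day 4 gave 2 members with DESeq2.

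Without 1 library the median log2 fold change of G1 genes ran from -0.26 to 0.0193 at day 6 and -0.19 to 0.0216 over both days, and that of S phase genes from -0.39 to 0.05 at day 6. S phase genes with all 3 4-OHT libraries below all 3 EtOH libraries numbered 1 with median-of-ratios scaling, 1 with library totals, and 0 to 9 without 1 library, 9 without 4-OHT replicate 1. These orders, the replicate-number term and the medians over both days were added after seeing the data. Log2 fold changes turned sign for some genes. Cdkn1b at day 6 was -0.0064 with library totals. Without 1 library the day 6 range was -0.77 to 0.11 for Pcna, -0.70 to 0.12 for Tyms, -0.22 to 0.10 for Cdt1, -0.28 to 0.17 for Mcm7, -0.0243 to 0.0709 for Aurkb, -0.11 to 0.13 for Cdkn1b, -0.0232 to 0.64 for Rb1, -0.41 to 0.11 for Mki67, -0.16 to 0.0184 for Ccnb1 and -0.43 to 0.19 for Cdk6. Over both days it was -0.49 to 0.0262 for Pcna, -0.47 to 0.0153 for Tyms, -0.22 to 0.0318 for Mcm7, -0.0748 to 0.29 for Rb1, -0.27 to 0.0820 for Cdk6, -0.14 to 0.0245 for Aurkb and -0.17 to 0.0045 for Cdkn1b. The cause was not tested.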

Other observations

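Other cell type markers were read in the same libraries as the 46 cell cycle genes. The 6 Paneth cell markers summed to 2801 and 2014 CPM in the day 6 EtOH replicates 1 and 2 and to 4911 and 2016 CPM in the day 6 libraries labelled 4-OHT, and to 396 (EtOH) and 1652 (4-OHT) CPM at day 4. The 8 enteroendocrine markers summed to 447 and 379 CPM (EtOH), 708 and 375 CPM (4-OHT), and 59.5 (EtOH) and 280 (4-OHT) CPM at day 4. Both sums, and those of the stem cell and tuft cell markers, were higher in replicate 1 than in replicate 2 under each treatment at day 6. The 8 goblet cell markers, at 3385 and 3485 CPM (EtOH) and 2888 and 2601 CPM (4-OHT), were not, but without Fcgbp the other 7, at 1187 and 1048 CPM (EtOH) and 1300 and 910 CPM (4-OHT), were. The stem cell order turned under EtOH without Olfm4 (3222 and 3846 CPM). The enterocyte sum was lower in replicate 1 under EtOH (1078 and 1189 CPM) and higher under 4-OHT (3829 and 3217 CPM). The 13 enterocyte markers were all higher under 4-OHT at day 6, and 11 were called by edgeR, against 2.27% of all genes called higher. The 7 tuft cell markers summed to 37.5 and 20.4 CPM (EtOH) and 11.5 and 9.76 CPM (4-OHT) at day 6. All 5 that were tested were lower under 4-OHT, and 1 was called lower by edgeR (0.235% of all genes). Of the 8 goblet cell markers 4 were higher and 4 lower under 4-OHT at day 6. Among them Zg16 and Clca1 were called higher by edgeR, and 0 were called lower. The part of these markers in the S phase values was not tested.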
